A study of Mus musculus with 12 samples.

Results

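Hox genes encode homeodomain transcription factors that stand in clusters on separate chromosomes and give cells along the head-to-tail axis their position. Within a cluster, genes of low paralog number act from the hindbrain and neck, and genes of high number act in the trunk, the limbs and the tail. In the spinal cord they set the columns and pools of motoneurons, with Hox6 genes at forelimb level, Hoxc9 in the thorax and Hox10 genes at hindlimb level, and many adult cells of mesenchymal and glial lineage keep a Hox code from their site of origin. Expression of this family was described in 2 tissues of Gdap1-/- and wild type mice. The members were all genes whose only platform symbol was Hoxa, Hoxb, Hoxc or Hoxd followed by a number, with each probe set kept apart. They were 33 of the 18193 genes with 1 symbol, read by 48 probe sets. Hox genes without such a probe set were not analysed here.

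The study used Affymetrix arrays on laser-dissected motoneurons of Gdap1-/- mice, motoneurons of wild type mice, sciatic nerve lysates of Gdap1-/- mice and nerve lysates of wild type mice, with 3 arrays in each group. All mice were untreated and 2 months old, and 20 ng of total RNA was amplified for each array. Gdap1 codes for a mitochondrial membrane protein whose loss causes neuropathy in people, and per the labels the knockout lacks exon 5. The Gdap1 probe sets lie outside that exon, per the design text, and Gdap1 levels were not used to check the genotype labels. The design text speaks of 5 mice and of arrays picked by RNA amount and quality; the sources used here give neither the strain nor the spinal level of the dissected cells. Nerve and motoneuron RNA were extracted with different kits.

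The deposited values are log2 intensities per probe set, so that 1 unit is a 2-fold difference. Array medians were 6.53 to 6.59 for motoneurons and 8.29 to 8.40 for nerve, and the tissues were read as normalized separately. A difference between tissues therefore depends on the scaling, and each was computed on 3 scalings: as deposited, after joint quantile normalization, and with every array centred on its median. Over all 45037 probe sets tested, the median of motoneurons minus nerve was -1.04 in knockout and -1.09 in wild type mice as deposited, 0.16 and 0.15 after quantile normalization, and 0.74 and 0.67 after centring. Tissue, extraction kit and normalization cannot be told apart. In these bulk samples fewer cells of a type and less RNA per cell cannot be told apart either.

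The labelled tissues were checked against marker genes. Of 10 measured motoneuron markers, 9 were higher in motoneurons in both genotypes on all 3 scalings, and of 8 fibroblast markers all 8 were lower. The dissected material also held RNA of other spinal cells, since 7 of 8 oligodendrocyte markers and 5 of 8 interneuron markers were higher on all 3 scalings too. Mean levels of the oligodendrocyte list were 10.67 to 11.12 in knockout and 11.02 to 11.60 in wild type motoneurons, against 7.10 to 7.44 in knockout and 7.06 to 7.27 in wild type nerve. Those of the interneuron list were 8.85 to 9.59 and 8.94 to 9.66 in motoneurons, against 4.94 to 5.88 and 5.01 to 5.33 in nerve. Of 7 Schwann cell markers 3 were lower and 0 higher in motoneurons on all 3 scalings. Muscle RNA varied among nerve arrays, with mean levels of its 10 markers of 9.29 to 10.37 in knockout and 7.86 to 12.82 in wild type nerve. These values move with the tissue, and their part in the Hox differences was not tested. All 8 oligodendrocyte markers and all 8 endothelial and mural markers were also below wild type in knockout motoneurons, with list medians of -0.40 and -0.38, though none passed the test. Of 8 astrocyte markers 5 were below and 3 above wild type, with a list median of -0.40, and none passed. By Xist and Eif2s3y, 1 of 3 knockout and 0 of 3 wild type motoneuron arrays were male, against 2 of 3 in each nerve group.

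The Hoxa cluster, on chromosome 6, gave 9 genes and 16 probe sets. The Hoxb cluster on chromosome 11 gave 9 genes and 11 probe sets, the Hoxc cluster on chromosome 15 gave 7 genes and 11 probe sets, and the Hoxd cluster on chromosome 2 gave 8 genes and 10 probe sets. Several probe sets read 11 of the genes, with up to 4 for Hoxa3. In RefSeq the span of Hoxa3 overlaps those of Hoxa4, Hoxa5 and Hoxa6, and the spans of Hoxb3 and Hoxb4, of Hoxd3 and Hoxd4, and of Hoxd10 and Hoxd11 overlap, so values of these genes may share transcripts and are uncertain in that respect.

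Promoter windows of 250 bases before the start site were held by the RefSeq table of build GRCm38.p6 for 19 member genes, in 21 windows. They were rich in CpG, with a median of 13 CpG against 6 over all 32851 windows in the table, and 17 of the 21 lay above that median. Their median GC content was 59.2%, against 52.4% over all windows. The Hox windows ranged from 2 to 35 CpG, and 4 are shown because they cover most of that range and come from genes whose tissue difference did and did not keep its direction over the scalings. Hoxa9 (chr6:52227371-52227620, minus strand, 3 CpG) and Hoxd10 (chr2:74691641-74691890, plus strand, 20 CpG) were higher in motoneurons in both genotypes on every scaling. Hoxa13 (chr6:52260881-52261130, minus strand, 35 CpG) and Hoxd13 (chr2:74667975-74668224, plus strand, 31 CpG) did not: Hoxa13 and the first Hoxd13 probe set changed sign with the scaling, and the second Hoxd13 probe set did not pass in knockout mice as deposited. Each is printed 5′ to 3′ on the gene's strand, with CpG in capitals.
Hoxa9: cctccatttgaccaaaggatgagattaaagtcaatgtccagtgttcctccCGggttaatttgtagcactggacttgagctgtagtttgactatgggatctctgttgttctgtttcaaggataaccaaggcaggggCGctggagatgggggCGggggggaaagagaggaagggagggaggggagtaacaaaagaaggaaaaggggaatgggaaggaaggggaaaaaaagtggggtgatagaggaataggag
Hoxd10: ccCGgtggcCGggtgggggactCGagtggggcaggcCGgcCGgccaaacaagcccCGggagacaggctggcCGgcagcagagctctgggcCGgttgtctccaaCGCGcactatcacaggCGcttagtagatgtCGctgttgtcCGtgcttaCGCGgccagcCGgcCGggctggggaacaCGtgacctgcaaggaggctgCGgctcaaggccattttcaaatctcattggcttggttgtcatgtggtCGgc
Hoxa13: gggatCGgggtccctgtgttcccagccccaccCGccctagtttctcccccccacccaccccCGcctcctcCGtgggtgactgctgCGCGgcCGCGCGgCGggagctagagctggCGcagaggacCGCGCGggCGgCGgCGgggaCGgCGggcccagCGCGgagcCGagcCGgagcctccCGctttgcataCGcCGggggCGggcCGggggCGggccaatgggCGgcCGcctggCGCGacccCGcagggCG
Hoxd13: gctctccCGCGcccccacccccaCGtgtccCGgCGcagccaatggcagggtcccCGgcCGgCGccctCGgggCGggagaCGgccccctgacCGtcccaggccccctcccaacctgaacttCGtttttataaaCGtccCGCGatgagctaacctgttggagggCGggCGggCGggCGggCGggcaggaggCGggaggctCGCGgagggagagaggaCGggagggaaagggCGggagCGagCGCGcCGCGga
The Hoxa9 window has few CpG, whereas those of Hoxa13 and Hoxd13 are full of them. Of short motifs searched on both strands, CCAAT stood in 11 of the 21 Hox windows (52.4%, against 33.8% of all windows), AGGTCA in 5 (23.8%, against 14%), TAATTA in 2 (9.52%, against 4.84%) and TATAAA in 2 (9.52%, against 12.4%). The Hoxd13 window holds TATAAA, and that of Hoxd10 holds AGGTCA. A match of letters is a description of the window and not a binding site.

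Low signal was judged against 77 probe sets named for odorant and vomeronasal receptors, whose 95th percentile was 5.07 to 5.23 on knockout motoneuron arrays, 5.13 to 5.40 on wild type motoneuron arrays, 6.50 to 6.72 on knockout nerve arrays and 6.51 to 6.88 on wild type nerve arrays. Hox probe sets above this level on all 3 arrays numbered 31 of 48 in knockout motoneurons (64.6%, against 59.8% of all probe sets), 33 in wild type motoneurons (68.8%, against 58.5%), 30 in knockout nerve (62.5%, against 65.5%) and 29 in wild type nerve (60.4%, against 64.4%). These shares were near those of all probe sets. Where a probe set did not pass in the dimmer tissue of a genotype, its tissue difference is also given below as a bound, the mean of the brighter tissue minus that of the dimmer with each array raised to its low-signal level. All bounds are on the deposited scale only and need not hold on the other scalings. The genes with no probe set above the low-signal level in any group were Hoxa11, Hoxa13, Hoxb1, Hoxb7, Hoxb13, Hoxc13, Hoxd1, Hoxd11, Hoxd12 and Hoxd13. These include every measured gene of paralog groups 11 to 13. Hoxb6 and Hoxd3 passed the level in both motoneuron groups and in neither nerve group, and Hoxb2 did the same. Hoxb2 was still above it on 2 of 3 nerve arrays in each genotype. With the 90th percentile as the level, Hoxb2 and Hoxb6 passed in both nerve groups and Hoxd3 in knockout nerve. Of the genes above the 95th percentile in no group, Hoxb13 then passed in every group, Hoxb7 in both motoneuron groups and Hoxa11 in knockout nerve. The absence of groups 11 to 13 thus depended in part on the level chosen.

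**Figure D1:**
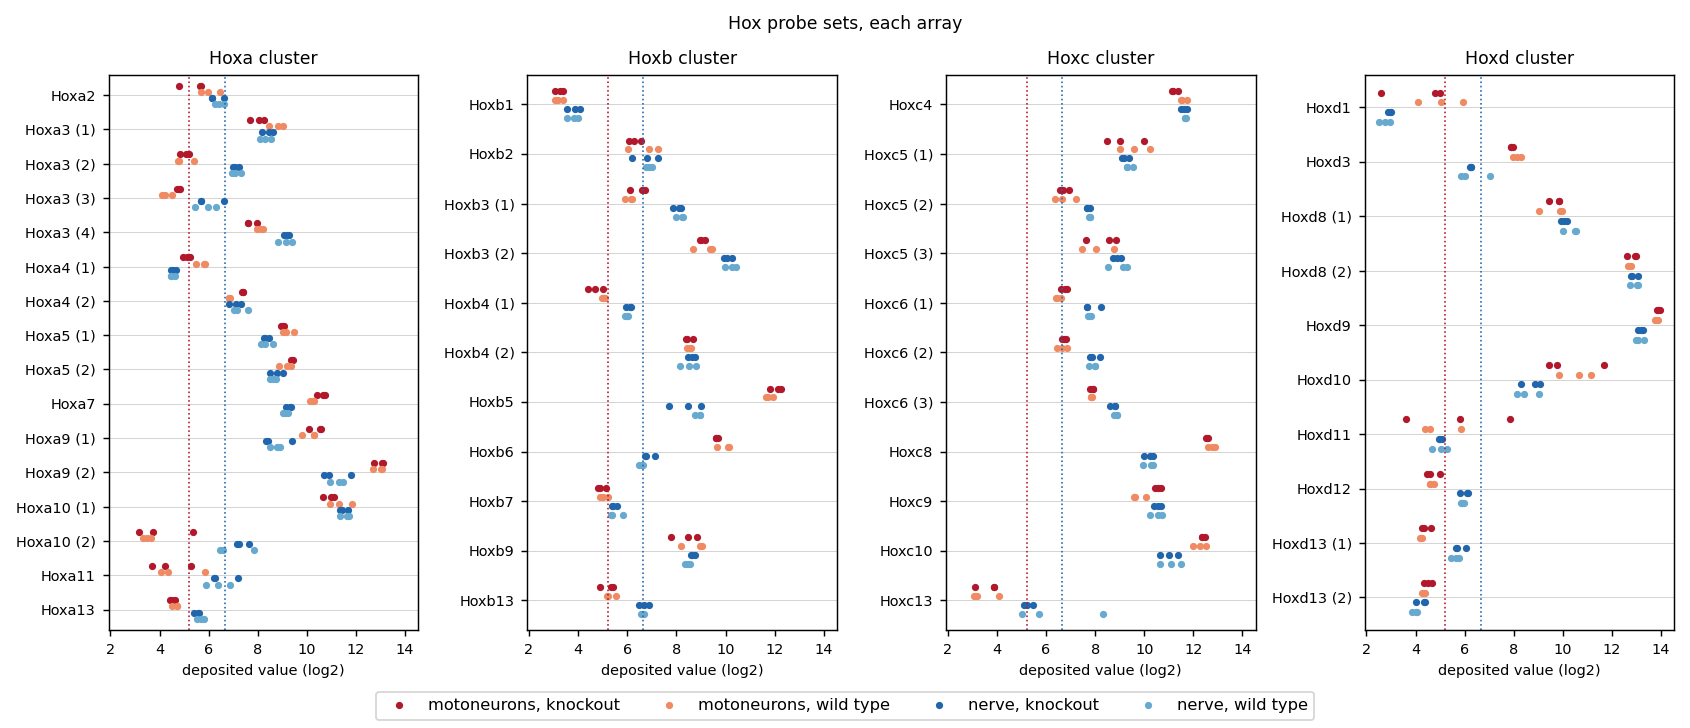
Deposited log2 value (x axis) of each Hox probe set (rows, numbered where a gene has several) on each array, in a panel per cluster, with knockout motoneurons dark red, wild type motoneurons orange, knockout nerve dark blue and wild type nerve light blue. Dotted lines mark the low-signal level of the motoneuron arrays (red) and the nerve arrays (blue), each the mean of the lowest and highest levels in the 2 genotypes. Hoxb5, Hoxb6 and Hoxc8 stand higher in motoneurons with no overlap, while the paralog 13 genes lie near or below the dotted line of their tissue, except Hoxc13 on 1 wild type nerve array.

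The first comparison was of motoneurons with nerve, within each genotype. As deposited, 13 Hox probe sets were higher and 22 lower in knockout motoneurons (15.2% and 67.5% of all probe sets), and 15 were higher and 22 lower in wild type motoneurons (14.3% and 67.9% of all). Both genotypes gave 13 of the same probe sets higher and 19 of the same lower, and none in opposite directions. The Hox median was -0.40 in knockout and -0.31 in wild type mice, above the medians of all probe sets. Most lower calls depended on the scaling: after quantile normalization 32 Hox probe sets were higher and 1 lower in knockout mice (40.5% and 33.6% of all) and 34 and 1 in wild type mice (39.6% and 32.9%). After centring there were 37 and 1 in knockout (56.6% and 24.8%) and 40 and 1 in wild type mice (54.9% and 24.7%).

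A probe set was counted as higher or lower irrespective of scaling where limma called it in the same direction in both genotypes on all 3 scalings. This held for 13 Hox probe sets of 11 genes as higher in motoneurons, or 27.1%, against 12.9% of all probe sets. It held for 1 Hox probe set as lower, or 2.08%, against 22.1% of all. The other 34 (70.8%) took neither call. Both other scalings raised motoneurons against nerve as a whole, so the rule put lower calls to the test and hardly the higher ones. The 13 higher probe sets were the same 13 called higher in both genotypes as deposited. Of the 13 higher probe sets, 10 were above the low-signal level in both tissues and genotypes, and those of Hoxb6, Hoxd3 and Hoxa4 (the first) were not. The 11 genes were Hoxa4, Hoxa5, Hoxa7, Hoxa9, Hoxb5, Hoxb6, Hoxc8, Hoxc10, Hoxd3, Hoxd9 and Hoxd10. They came from every cluster, with 6 probe sets in Hoxa, 2 in Hoxb, 2 in Hoxc and 3 in Hoxd. By paralog number, 1 probe set was of group 3, 1 of group 4, 3 of group 5, 1 each of groups 6, 7 and 8, 3 of group 9 and 2 of group 10, and none of groups 1, 2, 11, 12 or 13.

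Among genes of the middle groups, Hoxb5, a gene active from the hindbrain and neck backwards, had 11.82, 12.26 and 12.12 in knockout motoneurons and 11.65, 11.72 and 11.92 in wild type motoneurons, against 9.01, 8.49 and 7.69 in knockout nerve and 8.76, 8.95 and 8.98 in wild type nerve. Every motoneuron array stood well above every nerve array. The difference was 3.68 (SE 0.30) in knockout and 2.87 (SE 0.15) in wild type mice, with limma adjusted p of 4.20e-06 and 9.09e-07. Hoxb6, its neighbour, had 9.59, 9.60 and 9.70 in knockout motoneurons and 10.09, 10.14 and 9.66 in wild type motoneurons, against 6.72, 6.76 and 7.14 in knockout nerve and 6.65, 6.58 and 6.47 in wild type nerve. The tissues did not overlap, and the nerve arrays lay near their low-signal level. Hoxb6 differed by 2.76 (SE 0.18) in knockout and 3.40 (SE 0.20) in wild type mice, with limma adjusted p of 1.12e-06 and 1.55e-06. With 2 of 3 knockout and 1 of 3 wild type nerve arrays above that level, the bounds were at least 2.76 and at least 3.24.

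Hoxc8, which sets motor pools of the forelimb level in the embryo, had 12.58, 12.53 and 12.60 in knockout motoneurons and 12.89, 12.75 and 12.59 in wild type motoneurons, against 10.25, 10.36 and 9.99 in knockout nerve and 10.26, 10.36 and 9.96 in wild type nerve. All 6 motoneuron arrays exceeded all 6 nerve arrays, and both tissues were above the low-signal level. The difference was 2.37 (SE 0.12) in knockout and 2.55 (SE 0.15) in wild type mice, with limma adjusted p of 1.77e-07 and 1.58e-06. Hoxa7, a gene of the thoracic region, had 10.68, 10.41 and 10.75 in knockout motoneurons and 10.28, 10.13 and 10.21 in wild type motoneurons, against 9.31, 9.37 and 9.15 in knockout nerve and 9.22, 9.12 and 9.03 in wild type nerve. The tissues again did not overlap. Hoxa7 was higher by 1.34 (SE 0.15) in knockout and 1.09 (SE 0.15) in wild type mice, with limma adjusted p of 2.99e-05 and 0.000232.

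Genes of groups 9 and 10 act from the lower trunk to the hindlimb level. The second Hoxa9 probe set had 13.08, 12.74 and 13.08 in knockout motoneurons and 13.003, 13.07 and 12.69 in wild type motoneurons, against 10.88, 11.80 and 10.69 in knockout nerve and 11.31, 11.49 and 10.92 in wild type nerve. All motoneuron arrays lay above all nerve arrays, and the knockout nerve arrays were spread most. The difference was 1.84 (SE 0.26) in knockout and 1.68 (SE 0.17) in wild type mice, with limma adjusted p of 0.000147 and 3.88e-05, and the first Hoxa9 probe set gave 1.67 and 1.39. Hoxc10 had 12.37, 12.49 and 12.37 in knockout motoneurons and 11.997, 12.27 and 12.53 in wild type motoneurons, against 11.03, 11.36 and 10.66 in knockout nerve and 11.07, 11.52 and 10.62 in wild type nerve. The groups were apart in both genotypes, with both tissues well above the low-signal level. Hoxc10, a marker of hindlimb-level motor neurons, was higher by 1.39 (SE 0.16) in knockout and 1.19 (SE 0.24) in wild type mice, with limma adjusted p of 4.38e-05 and 0.00182.

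Hoxd10, which acts with Hoxc10 in hindlimb motor neurons, had 9.76, 11.66 and 9.41 in knockout motoneurons and 9.83, 10.67 and 11.13 in wild type motoneurons, against 8.86, 9.07 and 8.31 in knockout nerve and 9.04, 8.41 and 8.14 in wild type nerve. The tissues did not overlap, but motoneuron arrays of the same genotype were far apart from each other. The difference was 1.53 (SE 0.52) in knockout and 2.01 (SE 0.37) in wild type mice, with limma adjusted p of 0.0224 and 0.00111. Without the third knockout nerve array the knockout value was 1.31, with a limma adjusted p of 0.0709, so that the call was lost. Without the second knockout motoneuron array the value was 0.84 (limma adjusted p = 0.0177), so that the size rested on that array. Hoxd9, next to Hoxd10 in the cluster, was higher by 0.73 in knockout and 0.71 in wild type mice. Its arrays were tight, at 13.74 to 13.97 in motoneurons and 12.96 to 13.28 in nerve.

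Of the anterior groups, Hoxd3 had 7.88, 7.87 and 7.97 in knockout motoneurons and 8.13, 8.29 and 7.96 in wild type motoneurons, against 6.26, 6.26 and 6.24 in knockout nerve and 7.02, 5.87 and 5.99 in wild type nerve. No nerve array reached the motoneuron arrays, and most were below their low-signal level. Hoxd3 was higher by 1.66 (SE 0.17) in knockout and 1.83 (SE 0.31) in wild type mice, with limma adjusted p of 2.18e-05 and 0.000806. With 0 of 3 knockout and 1 of 3 wild type nerve arrays above the low-signal level, the bounds were at least 1.29 and at least 1.28. Hoxa5, which acts in phrenic motor neurons, was higher with both of its probe sets, by 0.68 and 0.62 in knockout and by 0.87 and 0.51 in wild type mice. The wild type call of the second Hoxa5 probe set was lost when any of 4 arrays was left out, with a limma adjusted p of up to 0.111. The first Hoxa4 probe set was higher by 0.55 in knockout and 1.19 in wild type mice, and without the third knockout nerve array the knockout value was 0.50, with a limma adjusted p of 0.0586. That probe set was above the low-signal level on 1 of 3 knockout and 3 of 3 wild type motoneuron arrays and on no nerve array, so the size of its difference is not a measured change. The second Hoxa4 probe set passed in neither genotype as deposited, with 0.31 in knockout and -0.42 in wild type mice.

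Hoxa10 was the 1 gene with a probe set called lower in motoneurons in both genotypes on all 3 scalings. That probe set had 3.74, 5.34 and 3.18 in knockout motoneurons and 3.50, 3.32 and 3.67 in wild type motoneurons, against 7.14, 7.22 and 7.66 in knockout nerve and 6.57, 7.85 and 6.45 in wild type nerve. The tissues were far apart, with all but 1 motoneuron array below the low-signal level and the nerve arrays around theirs. The difference was -3.25 (SE 0.49) in knockout and -3.46 (SE 0.36) in wild type mice, with limma adjusted p of 0.000240 and 4.28e-05, and was -1.47 and -1.70 after centring. As deposited, nerve was higher in knockout mice by at least 2.12. In wild type mice, with 0 of 3 motoneuron and 2 of 3 nerve arrays above the low-signal level, no size is given. The other Hoxa10 probe set, well above the low-signal level in both tissues, gave -0.58 in knockout and -0.22 in wild type mice and turned to 1.20 and 1.54 after centring. Hoxa10 is a regulator of hindlimb motor neurons and of the limb skeleton, and its probe sets differed in level and in call.

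The probe sets with neither call are by definition those that did not keep 1 call over the scalings and genotypes, so their counts only describe the rule. As deposited, 0 of these 34 were higher and 21 lower in knockout motoneurons, and 2 were higher and 21 lower in wild type motoneurons. After centring 24 were higher and 0 lower in knockout, and 27 and 0 in wild type mice. Of all probe sets, 67.5% in knockout and 67.9% in wild type mice were lower as deposited, and 56.6% and 54.9% were higher after centring. The Hoxc6 probe sets, an example chosen after the values were seen, gave -1.12, -1.22 and -0.87 in knockout and -1.30, -1.27 and -0.99 in wild type mice as deposited. The same 3 probe sets were higher by 0.65, 0.56 and 0.91 in knockout and by 0.46, 0.49 and 0.77 in wild type mice after centring. No direction is therefore given for Hoxc6, the marker of forelimb motor neurons. Hoxd13, a gene of the digits and the tail end, was called in opposite directions by its probe sets in wild type mice, with -1.39 and 0.34 as deposited, against -1.38 and 0.26 in knockout mice where the second did not pass. The first became 0.39 in knockout and 0.37 in wild type mice after centring, and all Hoxd13 values lay below the low-signal level of their arrays.

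Medians by paralog group are given as deposited. Group 9 (5 probe sets) had 0.73 in knockout and 0.72 in wild type mice, group 10 (4 probe sets) 0.41 and 0.49, and group 7 (2 probe sets) 0.41 and 0.31. Group 5 (6 probe sets) had 0.29 and 0.38. Group 2 had -0.69 and -0.29, group 4 -0.13 and -0.07, and group 8 -0.05 and -0.22. Group 3 had -1.24 and -1.05, and group 6 -0.998 and -1.13. No probe set of paralog groups 1, 11, 12 and 13 passed the low-signal level in any tissue and genotype. Their medians were 0.28 and 0.85, -0.705 and -0.84, -1.34 and -1.26, and -1.38 and -1.33, and give no order. After centring every group median was above 0, at 0.39 to 2.51 in knockout and 0.43 to 2.61 in wild type mice. Within group 6, Hoxb6 was higher by 2.76 and 3.40 where the 3 Hoxc6 probe sets were lower as deposited. The 3 probe sets of group 8 likewise held Hoxc8 at 2.37 and 2.55 and the Hoxd8 probe sets at -0.33 and -0.05 in knockout and -0.72 and -0.22 in wild type mice.

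**Figure D2:**
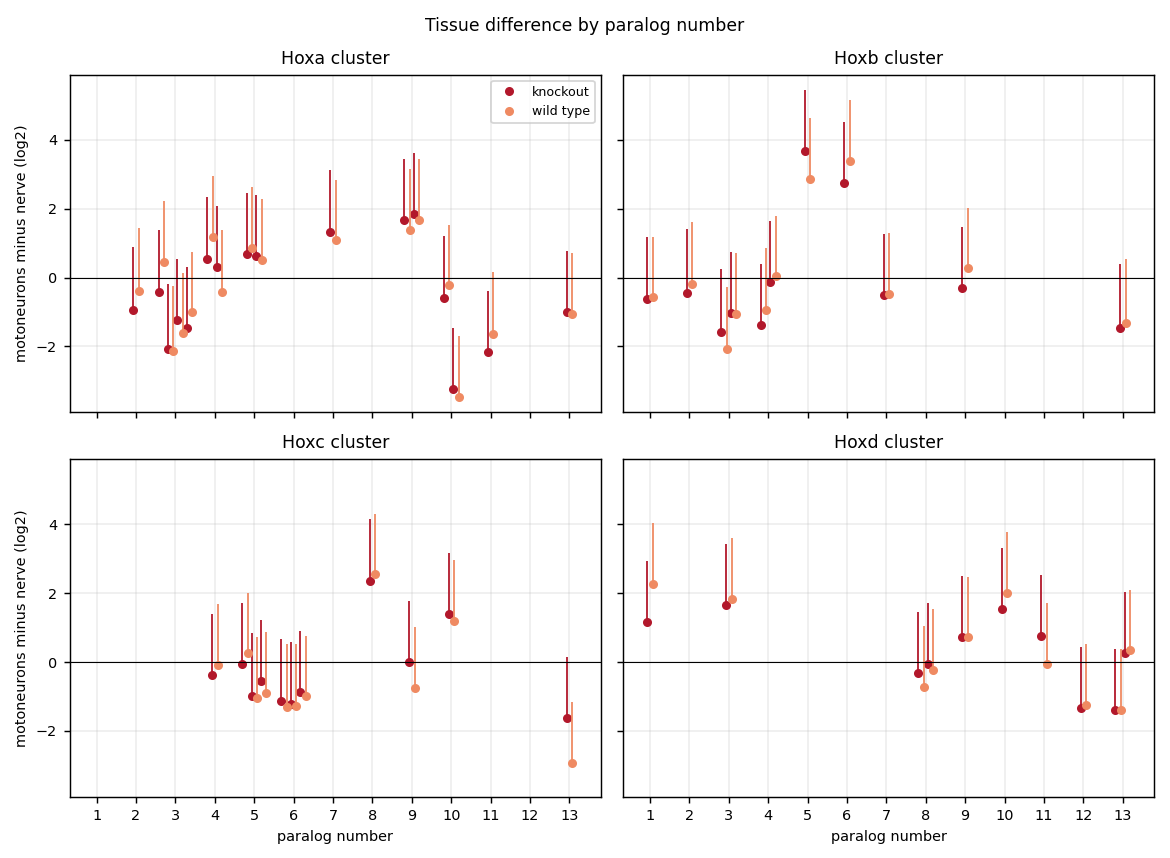
Difference of motoneurons minus nerve (y axis, log2) for each Hox probe set by paralog number (x axis) in each cluster, with knockout dark red and wild type orange. Points are values as deposited, and the line from each point covers its values on the 3 scalings. Hoxb5 and Hoxb6, Hoxc8 and Hoxc10, and Hoxd3, Hoxd9 and Hoxd10 stay above 0 throughout. The second Hoxa10 probe set stays below 0 at -3.25 to -1.47 in knockout and -3.46 to -1.70 in wild type mice. The second Hoxa3 probe set also stays below 0, at -2.07 to -0.18 in knockout and -2.14 to -0.25 in wild type mice. It was called lower only as deposited.

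The second comparison was of knockout with wild type motoneurons, the question of the study within that tissue. No Hox probe set passed limma's test at an adjusted p of 0.05 (0 of 48, and 0.0% of all probe sets), and the smallest adjusted p of a Hox probe set was 0.118. At an unadjusted p under 0.05 there were 8 of 48 (16.7%, against 17.0% of all), a share near the background. The arrays of the genotypes did not overlap for 10 Hox probe sets, 5 higher (12.7% of all probe sets were) and 5 lower in the knockout (9.77% of all), together 20.8% against 22.5% of all. The median difference was 0.01, with 25 probe sets above 0 and 23 below, and the range was -0.88 to 0.83. The sex of the arrays differed between these groups, and its part was not tested beyond a fit with Xist as a covariate, in which no Hox probe set passed. The oligodendrocyte and endothelial markers lay below wild type in the knockout, as given above, though none passed, and their part was not tested.

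The 5 Hox probe sets with the smallest p were described in full. Hoxc9, which gives the thoracic level its motor columns, had 10.45, 10.56 and 10.66 in knockout motoneurons, against 9.62, 9.58 and 10.07 in wild type motoneurons. The genotypes did not overlap, and the third wild type array was nearest to the knockout. The difference was 0.80 (SE 0.17, limma adjusted p = 0.118), and without the third wild type array it was 0.96 and passed, with a limma adjusted p of 0.00718. The first Hoxa3 probe set had 8.06, 7.70 and 8.26 in knockout motoneurons, against 8.82, 9.05 and 8.45 in wild type motoneurons. Hoxa3, a gene of the hindbrain and neck, differed by -0.77 (SE 0.23, limma adjusted p = 0.174), and by -0.93 without the third wild type array, with a limma adjusted p of 0.0419. How many of all probe sets passed without that array is not given here. The other Hoxa3 probe sets gave 0.05, 0.50 and -0.39, so that the probe sets of this gene did not share a sign.

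Hoxc4, a gene of the neck region, had 11.18, 11.13 and 11.38 in knockout motoneurons, against 11.75, 11.53 and 11.52 in wild type motoneurons, a difference of -0.37 (SE 0.11, limma adjusted p = 0.178). The first Hoxa4 probe set had 5.12, 4.96 and 5.24 in knockout motoneurons, against 5.83, 5.81 and 5.50 in wild type motoneurons, and the second had 7.39, 7.37 and 7.39, against 6.84, 6.86 and 6.85. The genotypes did not overlap in either, but the order was opposite, at -0.61 (SE 0.19, limma adjusted p = 0.185) and 0.53 (SE 0.17, limma adjusted p = 0.193). Neither Hoxa4 probe set passed. The first was above the low-signal level on 1 of 3 knockout and 3 of 3 wild type motoneuron arrays, so the size of its difference is not a measured change.

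**Figure D3:**
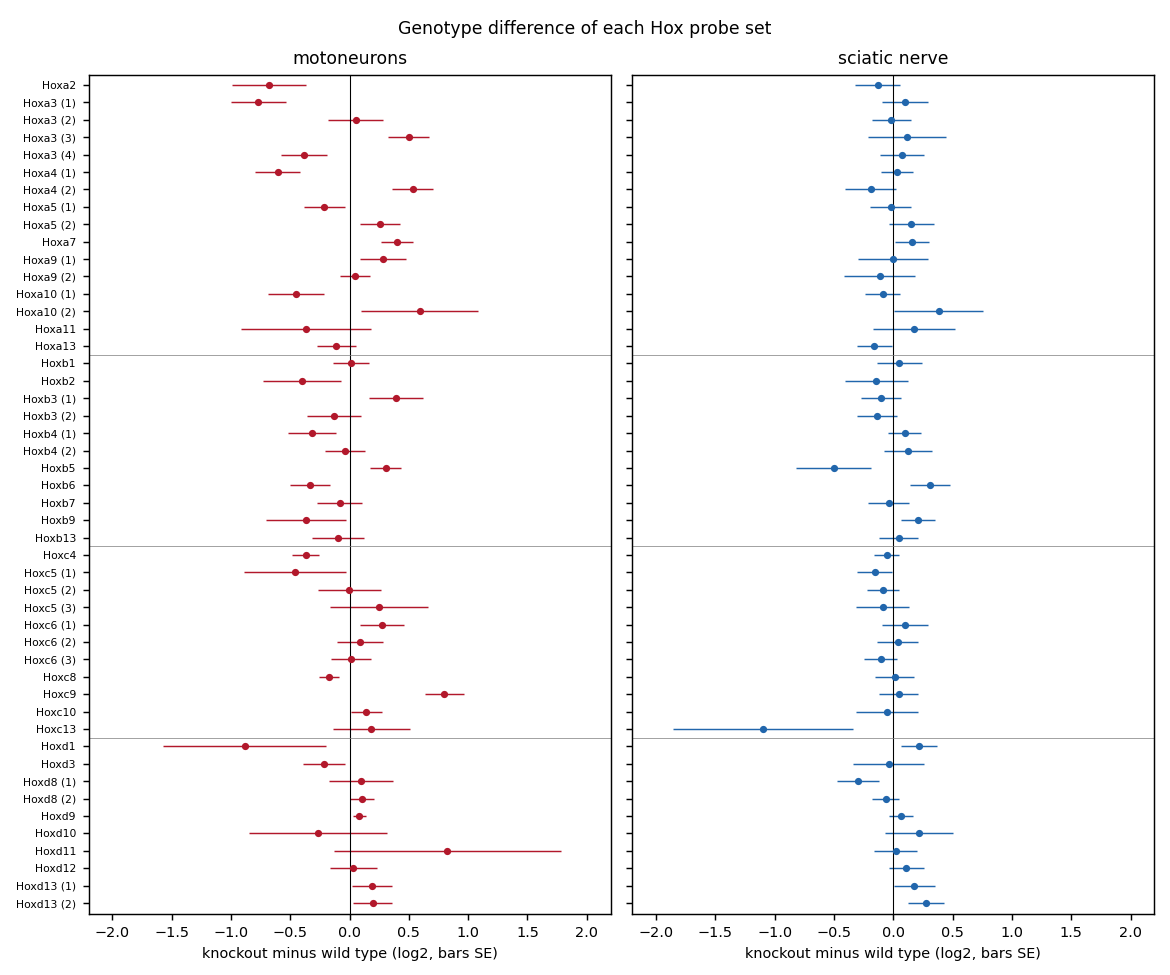
Difference of knockout minus wild type (x axis, log2) for each Hox probe set (rows, by cluster) in motoneurons (left, red) and in sciatic nerve (right, blue), with bars of 1 SE. No Hox probe set passed in either tissue; Hoxc9 at 0.80 has the smallest p in motoneurons, and the widest bar in nerve belongs to Hoxc13 at -1.10.

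The third comparison was of knockout with wild type sciatic nerve. No Hox probe set passed (0 of 48, and 0.0% of all), each limma adjusted p was 1, and 0 of 48 had an unadjusted p under 0.05 (2.31% of all). The genotypes did not overlap for 2 probe sets, of Hoxb6 and Hoxb9, both higher in the knockout (4.17%, against 3.58% of all that were higher and 7.26% in either direction). The median was 0.01 and the range -1.10 to 0.38. Hoxb6 had 6.72, 6.76 and 7.14 in knockout nerve, against 6.65, 6.58 and 6.47 in wild type nerve, a difference of 0.31 (SE 0.17), and of 0.17 without the third knockout array. Hoxb9, a trunk gene, had 8.58, 8.64 and 8.77 in knockout nerve, against 8.55, 8.36 and 8.46 in wild type nerve, a difference of 0.21 (SE 0.14). Neither gap passed the test.

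The other nerve probe sets with the smallest p were the second of Hoxd13 at 0.27 (SE 0.15), the first of Hoxd8 at -0.30 (SE 0.18) and that of Hoxb5 at -0.50 (SE 0.32). Without the second wild type array the Hoxd8 value was -0.47. Hoxb5 had 9.01, 8.49 and 7.69 in knockout nerve, against 8.76, 8.95 and 8.98 in wild type nerve, so that the knockout arrays spread over more than the gap between the means. Its difference was -0.15 without the third knockout array and -0.81 without the first. Hoxc13, a gene of hair and nails, had 5.09, 5.47 and 5.21 in knockout nerve, against 5.71, 5.03 and 8.33 in wild type nerve. Its difference of -1.10 (SE 0.76) rested on the third wild type array.

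The difference between these genotype effects, motoneurons minus nerve, was tested as an interaction over all 12 arrays. No Hox probe set passed (0 of 48, and 0.0% of all), with 6 at an unadjusted p under 0.05 (12.5%, against 7.54% of all) and a smallest limma adjusted p of 0.603. The 5 with the smallest p were Hoxc9 at 0.76, the first Hoxa4 probe set at -0.64, the first Hoxa3 probe set at -0.87, the second Hoxa4 probe set at 0.73 and Hoxb6 at -0.64. The first Hoxa4 probe set was above the low-signal level on no nerve array, so its value is not a measured change. The genotype difference of Hoxb6 was -0.33 in motoneurons and 0.31 in nerve, neither of which passed. A difference of the genotype effect between tissues was thus not shown for any Hox gene.

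Spread among arrays of a group differed by gene. The median SD pooled over genotypes was 0.198 for Hox probe sets and 0.229 for all probe sets in motoneurons, and 0.203 and 0.206 in nerve. In motoneurons 7 Hox probe sets lay above the 95th percentile of all probe sets, an SD of 0.638, and they were of Hoxa10, Hoxa11, Hoxc5 (2 probe sets), Hoxd1, Hoxd10 and Hoxd11. In nerve 2 did so, of Hoxa10 and Hoxc13. Hoxd11, the neighbour of Hoxd10 and a gene of the limb and hindlimb level, had 5.82, 7.85 and 3.61 in knockout motoneurons and 4.58, 4.39 and 5.84 in wild type motoneurons, against 4.98, 5.07 and 4.96 in knockout nerve and 5.04, 5.27 and 4.65 in wild type nerve. The motoneuron arrays ranged over more than 4 units where the nerve arrays stayed within 1.

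Hoxa11 had 3.69, 5.28 and 4.22 in knockout motoneurons and 4.07, 4.35 and 5.87 in wild type motoneurons. The first Hoxc5 probe set, of a phrenic motor neuron gene, had 9.02, 10.01 and 8.49 in knockout motoneurons and 9.03, 9.60 and 10.25 in wild type motoneurons. For all Hox probe sets with this wide spread in motoneurons except that of Hoxd1, the highest array was replicate 2 in the knockout and replicate 3 in the wild type. For Hoxa10 the wild type arrays spanned only 3.32 to 3.67. This order was picked out after the values were seen, and how often it occurs among all probe sets was not tested. Hoxd1 ran differently, with 5.01, 2.60 and 4.78 in knockout motoneurons and 5.91, 5.03 and 4.09 in wild type motoneurons, against 2.89 to 2.995 in knockout nerve and 2.50 to 2.97 in wild type nerve. Hoxd1 passed the low-signal level in no group, so these values are no measured level and are not compared between tissues. Its lowest knockout array was the second. That second knockout array, the highest knockout array for the other probe sets of wide spread, Hoxd10 among them, was also the 1 male motoneuron array. Its Xist was 5.18, against 9.37 to 10.38 on the other motoneuron arrays, and the part of sex in this spread was not tested. Which spinal levels entered each array is not stated, and their part in this spread was not tested.

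**Figure D4:**
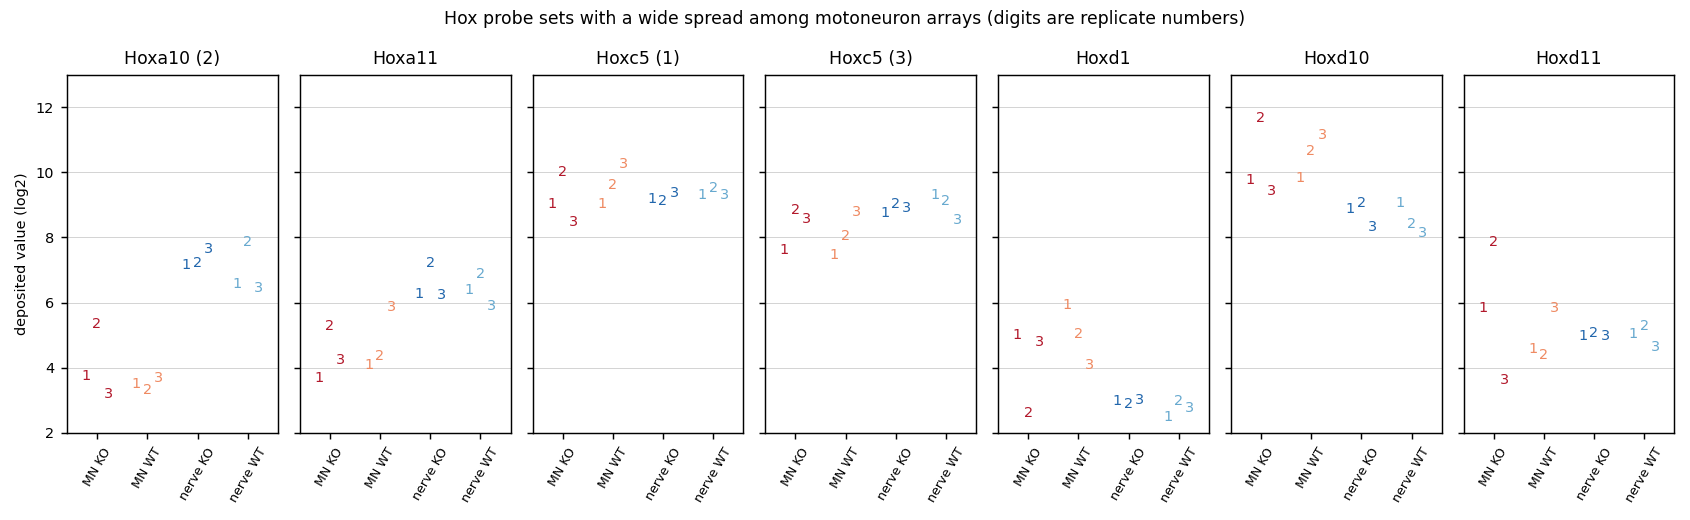
Deposited log2 value (y axis) of the 7 Hox probe sets with the widest spread among motoneuron arrays, in a panel each, with digits for replicate numbers and groups along the x axis (MN, motoneuron; KO, knockout; WT, wild type). Hoxd11 spans 3.61 to 7.85 on knockout motoneuron arrays and 4.65 to 5.27 over both nerve groups, where every value is below the low-signal level.

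Genes that work with Hox proteins were read from lists, each gene by its brightest probe set, with the median over all probe sets at -1.09 in wild type mice. That median covers dim probe sets too, and a background matched to the lists was not computed. Of 10 TALE cofactors, which bind DNA beside Hox proteins, Pbx3, Meis2 and Meis3 were higher and Pknox1, Tgif1 and Tgif2 lower in motoneurons on all 3 scalings, with a list median of -0.86 in wild type mice. Meis2 differed by 1.21 in knockout and 1.40 in wild type mice, and Pbx3 by 0.89 and 1.02. The repressor Tgif2 differed by -5.26 and -4.93. Of 21 regulators of motoneuron columns and pools, 11 were higher and 2 lower on all 3 scalings, with Lhx4 at least 5.86 higher in knockout and 5.40 higher in wild type mice and Mnx1 at least 2.79 and 2.95 higher, against nerve below the low-signal level on most or all arrays. That list holds several motoneuron markers and is no independent evidence on the tissue.

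Retinoic acid opens Hox clusters in the embryo. Of 16 genes of its pathway, 0 were higher and 6 lower in motoneurons on all 3 scalings. The shares over all probe sets, 12.9% and 22.1%, are not a matched background for genes read by their brightest probe set. Aldh1a3, a synthesizing enzyme, was below the low-signal level in motoneurons. As deposited, it was higher in nerve by at least 6.89 in knockout and 6.61 in wild type mice. Rarg, a receptor, was at -4.84 and -4.63. Of 27 Polycomb genes, which keep silent Hox genes repressed, 1 was higher and 5 lower by the same rule. Of 17 Trithorax and related genes, which keep active Hox genes open, 2 were higher and 2 lower. Of 12 limb position regulators, Shh was higher, at 3.52 and 3.85, and 4 were lower, with Tbx2 higher in nerve by at least 3.27 and 3.08 as deposited. Of 17 other homeobox genes, 4 were higher and 0 lower, with Evx1, which stands beside the Hoxa cluster, higher by at least 2.05 and 1.74. No member of these lists passed between the genotypes in either tissue.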

How the data were processed

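Gene expression was measured on 12 Affymetrix mouse arrays, 3 for each tissue and genotype, grouped by the labels. The values the authors deposited are log2 intensities per probe set, made with Affymetrix Expression Console 1.1 per the submitters' processing notes; no source used here states how probes were summarized or background-corrected, and the scale was taken from the range of the values. Precision is set by the small number of arrays.

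Of 45101 probe sets, 64 controls were left out. Platform annotation gave 34945 of the rest 1 symbol, 932 several and 9160 none. Hox genes were not named from probe sets with several symbols. Each comparison was fitted over all 45037 probe sets with limma 3.58.1 in R 4.3.3 (lmFit, eBayes with a mean trend), two-sided, with Benjamini-Hochberg adjustment and a threshold of 0.05. The genotype comparisons used 6 arrays each, the tissue comparisons 6 arrays within a genotype, and the interaction all 12. The step was tested on simulated data. Plots were made in Python 3.11.15 using matplotlib 3.10.9. Sequences and gene order came from RefSeq tables of build GRCm38.p6.

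The members and lists were chosen with earlier results of these data known. Described in full were up to 8 Hox genes higher and 8 lower in motoneurons on all 3 scalings, by the size of the mean difference and 1 probe set a gene, the 5 smallest p in each genotype comparison and the interaction, and genes whose probe sets were called in opposite directions. Lists name up to 4 members by smallest p and some chosen after their values were seen. Replicate numbers are shared between groups in the labels, but correlations of deviations of same-numbered arrays were over 0.1 for every number in no pair of groups (0.03, 0.31 and 0.22 between nerve genotypes, -0.08 to 0.09 otherwise), so the numbers were not read as pairs. Alternatives were other scalings, brighter probe sets, 1 probe set a gene, array weights, Xist as a covariate, the replicate block, all arrays in 1 fit and each array left out.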

Additional observations from a re-analysis of the deposited data

How the results depend on the processing

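Total Hox calls between tissues, 35 in knockout and 37 in wild type mice, stayed within 1.5 times under the other scalings, array weights, the Xist covariate and each array left out, but their direction followed the scaling. Higher calls, 13 in knockout and 15 in wild type mice, became 32 and 34 after quantile normalization and 37 and 40 after centring, and lower calls, 22 in each, became 1 and 1 under both. Among brighter probe sets, fewer of which were tested, the totals were 16 and 17 and the lower calls 5 and 6; with 1 probe set a gene the wild type total was 22 and the lower calls were 14 in knockout and 11 in wild type mice. Between motoneuron genotypes, calls ranged from 0 to 2 when an array was left out, 2 without the third wild type array, and 1 passed with array weights and in the fit of all 12 arrays. That was Hoxc9, with 0.88 (limma adjusted p = 0.0233) and 0.80 (limma adjusted p = 0.0408). The share of all probe sets that passed under these settings is not given, so these calls are not read as particular to Hox genes. The first Hoxd13 probe set turned to 0.28 after quantile normalization in knockout and wild type mice, and to 0.39 and 0.37 after centring. The Hoxc6 probe sets turned to 0.68, 0.58 and 0.67 in knockout and 0.52, 0.52 and 0.52 in wild type mice after quantile normalization, and to 0.65, 0.56 and 0.91 and 0.46, 0.49 and 0.77 after centring. The second Hoxd13 probe set, at 0.34 in wild type mice, lost its call with array weights (0.30), in the fit of all arrays and without any of the 6 arrays. With the replicate block, 5 wild type tissue calls were lost, the second of Hoxa5 (0.51, limma adjusted p = 0.0726), the second of Hoxd13 (0.34, 0.0747), Hoxb7 (-0.47, 0.0701), the first of Hoxd8 (-0.72, 0.0597) and the third of Hoxc5 (-0.89, 0.0853); in knockout mice Hoxb7 was lost (limma adjusted p = 0.0589), Hoxd1 was gained (0.0348), and no other Hox call changed. Nerve arrays of numbers 2 and 3 correlated best with their own number across genotypes and number 1 did not. With Xist as a covariate the call of the second Hoxa5 probe set was also lost (0.44, limma adjusted p = 0.103). Dim probe sets limit what can be said of the paralog 11 to 13 genes, and 3 arrays a group limit all genotype comparisons.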

Other observations

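Probe sets outside the rule gave further values near the clusters. A probe set shared by Hoxb8 and Hoxb7 averaged 9.43 ± 0.38 in knockout and 8.997 ± 0.36 in wild type motoneurons, against 6.11 ± 0.27 in knockout and 6.20 ± 0.31 in wild type nerve (SD, n = 3 each). It was higher in motoneurons on all 3 scalings, with all nerve arrays below the low-signal level, by at least 2.81 in knockout and 2.32 in wild type mice as deposited, and limma adjusted p of 2.38e-06 and 1.96e-05. Its reads of the gene pair cannot be split, and the probe set of Hoxb7 alone lay near or below the low-signal level in both tissues.

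Antisense transcripts of the clusters were read by 5 probe sets. Hoxb5os averaged 9.80 ± 0.35 in knockout and 8.79 ± 0.34 in wild type motoneurons, against 7.30 ± 0.44 in knockout and 7.76 ± 0.31 in wild type nerve (SD, n = 3 each), and was higher on all 3 scalings. It was 1.01 higher in knockout than in wild type motoneurons, with a limma adjusted p of 0.130. The first Hoxd3os1 probe set averaged 5.61 ± 0.65 in knockout and 5.22 ± 0.28 in wild type motoneurons, against 8.94 ± 0.70 in knockout and 9.01 ± 0.02 in wild type nerve. It was lower on all 3 scalings, while the probe set of Hoxd3 alone was higher in motoneurons. A probe set shared by Hoxd4 and Hoxd3, above the low-signal level in both tissues, gave -1.03 in knockout and -1.50 in wild type mice as deposited. Another shared by them gave 0.51 and 0.34 and did not pass that level in either tissue. Neither took the same call on all 3 scalings. The other Hoxd3os1 probe set and both Hoxa11os probe sets took neither call on all 3 scalings. None of these probe sets passed between the genotypes.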
